A study of Arabidopsis thaliana with 12 samples.

Results

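A pair of Arabidopsis genotypes at opposite ends of ASR3 expression was compared in resting seedlings, without any contact with the immune elicitor flg22. OX9 is a single transgenic line in which the 35S promoter drives HA-tagged ASR3 (35S:ASR3-HA), and asr3-1 is the mutant of the same gene. The comparison takes the FPKM columns OX9_CK and asr3-1_CK, repeat by repeat, and so rests on 4 of the 12 libraries of the study. FPKM is a read level divided by transcript length and library size.

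ASR3 (AT2G33550) encodes a DNA-binding protein of the trihelix family, a plant group whose members bind GT-rich elements in promoters. It is known as a transcriptional repressor that the MAP kinase MPK4 phosphorylates and that holds back immune gene expression after flagellin is perceived. Flg22 is the flagellin peptide that the receptor kinase FLS2 recognizes. The question addressed here is which transcripts differ between the line with high and the line with low ASR3 when no elicitor has been given. Because each is a single line, the level of ASR3 cannot be told apart from any other difference between the lines.

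The seedlings of all groups were 10 days old and whole plants were taken, after growth on sucrose-containing agar and a night in water. Each group has 2 libraries, one from each independent repeat of the work. Every library was made from the pooled RNA of 2 biological replicates, and the spread between libraries is thus one between pools. The series holds 6 libraries without flg22 (OX9, asr3-1 and Col-0 wild type, WT) and 6 given flg22 for 30 min (the same genotypes). The 8 libraries outside the comparison add to the estimate of the spread. A gene whose response to flg22 varied between repeats thus has a wider estimated spread at rest as well. In whole seedlings a transcript carried by fewer cells of a type and one at a lower level per cell cannot be told apart.

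The libraries were alike in how many genes reached 1 FPKM, at 19543 and 19137 in OX9 and 19413 and 19224 in asr3-1. The depth could only be estimated from the smallest nonzero steps in the values, at about 7700000 and 6100000 reads in OX9 and 7300000 and 11500000 reads in asr3-1. The repeats stood apart in some genes in all genotypes: MT1A, a metallothionein gene, took 1.71% of the summed FPKM in OX9 and 1.71% in asr3-1 in repeat 1, but 14.96% in OX9 and 12.77% in asr3-1 in repeat 2. Differences were read within repeats. The genes tested were the 20753 that reached 1 FPKM in 2 or more libraries of the series, on the scale of log2(FPKM + 1), which understates the change of low genes.

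ASR3 itself (chr2:14209982-14211693, minus strand, 3 exons; TAIR10.1 annotation) was read first. Its transcript stood at 521 and 590.4 FPKM in OX9 (repeats 1 and 2), against 6.58 and 2.5 FPKM in asr3-1, while WT held 9.59 and 6.24 FPKM. Both OX9 libraries lay far above both mutant libraries, and the levels of the mutant did not reach 0. The difference was 6.75 ± 0.32 on the log2 scale (standard error), and it passed limma's moderated test with adjusted p = 0.0019. In OX9 the reads of the transgene and of the native gene are counted together, and the sources used here do not give the place of the asr3-1 lesion in the gene.

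Only 1 other gene passed the test. AT3G57160, a protein-coding gene annotated as a cysteine-rich TM module stress tolerance protein (chr3:21157852-21158867, minus strand, 3 exons), had 24.2 and 16.9 FPKM in OX9 against 5.40 and 2.99 FPKM in asr3-1, with 6.44 and 5.55 FPKM in WT. The OX9 libraries did not overlap with the mutant ones, and the within-repeat differences of 1.98 and 2.17 were nearly equal. The share of all genes without overlap was not counted. It rose by 2.07 ± 0.16 on the log2 scale (limma, adjusted p = 0.019). Against WT the difference was 1.61 in OX9 and -0.47 in asr3-1; both of these use the same WT libraries. With the 4 compared libraries alone neither gene passed (limma, adjusted p = 0.488 for ASR3 and 0.459 for AT3G57160), and without the repeat as a block AT3G57160 did not pass (adjusted p = 1).

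AT3G57157, a noncoding RNA beside AT3G57160 on the opposite strand, had 29.0 and 32.5 FPKM in OX9 against 13.0 and 15.8 FPKM in asr3-1, and 27.3 and 10.7 FPKM in WT. Its OX9 libraries lay above the mutant ones in both repeats, but the difference of 1.05 did not pass (limma, adjusted p = 1), and with flg22 it had 27.2 and 18.19 FPKM in OX9 against 12.3 and 24.0 FPKM in asr3-1, which overlap. AT3G57170, on the other side, differed by -0.08 on the log2 scale.

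Over all genes the test therefore called 2 of 20753 (0.00964%), both higher in OX9 and 0 lower. Leaving out 1 library at a time gave 1 to 14 genes, with 14 without OX9 repeat 1, 5 without asr3-1 repeat 2 and 1 without OX9 repeat 2, and AT3G57160 was not among them in any case (limma, adjusted p from 0.0507 to 0.296). Before adjustment 400 genes were higher (1.93%) and 475 lower (2.29%) at p under 0.05, 4.22% in all. The third smallest adjusted p was 0.0825 and belonged to AT2G01422. The median difference of all genes was -0.016, and the within-repeat differences of the 2 repeats had a Pearson correlation of 0.07 across the 20753 genes, which are not independent of each other and within a repeat share their libraries.

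Upstream sequences are shown for 5 protein-coding genes whose 4 OX9 libraries, with and without flg22, lay on 1 side of all 8 other libraries, so that the genes behind the clearest levels can be read beside their values. They were chosen after the values were seen. Each is the window of 250 bases before the annotated start of the gene, read 5′ to 3′ on the strand of the gene, from the NCBI RefSeq genome TAIR10.1. Capitals mark the core of the W-box, TTGAC, the element bound by WRKY factors, on either strand. The GT element GGTTAA, bound by the trihelix protein GT-1, was searched on both strands as well and occurs in none of the 5 windows. No marked match overlaps another.
AT3G57160, chr3:21158868-21159117, minus strand: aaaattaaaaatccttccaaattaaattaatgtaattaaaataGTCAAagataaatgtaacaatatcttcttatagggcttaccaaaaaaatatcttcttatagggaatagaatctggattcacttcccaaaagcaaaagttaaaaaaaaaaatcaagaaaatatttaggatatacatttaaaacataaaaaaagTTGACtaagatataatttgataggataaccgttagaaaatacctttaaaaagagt
AT3G55290, chr3:20502193-20502442, plus strand: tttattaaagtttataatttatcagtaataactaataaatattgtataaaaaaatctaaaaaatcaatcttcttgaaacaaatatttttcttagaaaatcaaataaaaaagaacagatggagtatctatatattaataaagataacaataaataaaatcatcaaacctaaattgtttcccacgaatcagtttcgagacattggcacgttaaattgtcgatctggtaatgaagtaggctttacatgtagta
PAP22, chr3:19577142-19577391, minus strand: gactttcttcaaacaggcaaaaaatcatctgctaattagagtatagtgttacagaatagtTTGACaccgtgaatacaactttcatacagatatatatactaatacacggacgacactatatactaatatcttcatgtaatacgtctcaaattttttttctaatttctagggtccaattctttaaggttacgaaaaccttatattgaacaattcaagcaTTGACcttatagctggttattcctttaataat
scpl33, chr3:5859190-5859439, minus strand: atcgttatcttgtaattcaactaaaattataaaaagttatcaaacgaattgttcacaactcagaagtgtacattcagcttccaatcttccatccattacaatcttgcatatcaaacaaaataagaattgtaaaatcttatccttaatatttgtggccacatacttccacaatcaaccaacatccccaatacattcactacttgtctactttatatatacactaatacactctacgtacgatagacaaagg
AT4G00165, chr4:69958-70207, minus strand: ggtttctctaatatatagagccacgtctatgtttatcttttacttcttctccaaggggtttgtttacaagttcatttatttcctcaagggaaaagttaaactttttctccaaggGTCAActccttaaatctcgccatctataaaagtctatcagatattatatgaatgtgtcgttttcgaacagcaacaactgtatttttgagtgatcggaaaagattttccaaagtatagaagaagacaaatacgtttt

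AT3G57160 has 2 W-box cores, at positions -207 and -55 from its start, PAP22 has 2 and AT4G00165 has 1. Among the same windows of the 20029 protein-coding genes kept, 45.5% hold at least 1 W-box core and 15.1% at least 1 GT element. A match is a run of letters and not a measured binding site, and its absence says only that these letters are not in this window.

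A second description needed no estimate of the spread: genes at least 2-fold apart (a difference of at least 1 on the log2 scale) in the same direction in both repeats. There were 32 such genes higher in OX9 (0.154% of the genes kept) and 18 lower (0.0867%). The 50 genes (0.241%) stood beside 39 genes (0.188%) that were at least 2-fold apart in opposite directions in the 2 repeats. With a pseudocount of 0.5 or 0.1 in place of 1, which gives low genes more weight, the 50 became 88 or 189. The number in opposite directions with these pseudocounts is not given here, so the rise does not show closer agreement of the repeats. In a single repeat 456 genes (repeat 1) or 498 genes (repeat 2) were at least 2-fold apart. Of the 50 genes 42 are annotated as protein-coding, 6 as pseudogenes and 2 as noncoding RNA. Of the 20753 genes kept, 20029 were protein-coding genes with an upstream window, a larger share than among the 50.

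**Figure D1:**
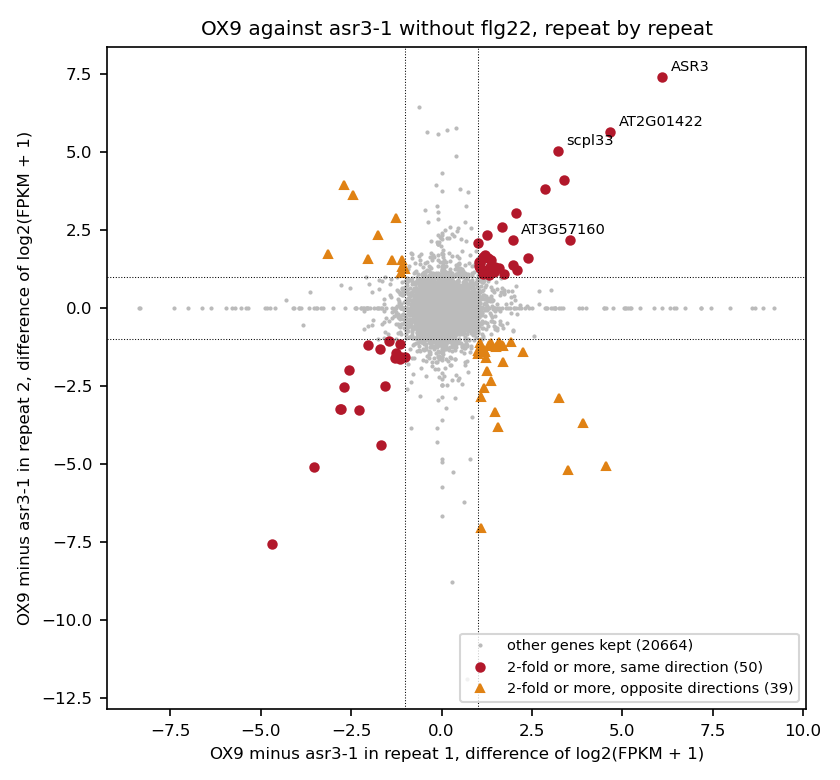
Each point is 1 of the 20753 genes, with the OX9 minus asr3-1 difference of log2(FPKM + 1) in repeat 1 on the x axis and in repeat 2 on the y axis; dotted lines mark a 2-fold difference. The 50 genes in red agree in direction, with ASR3, AT2G01422 and scpl33 at the upper right, and the 39 genes in orange disagree.

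Among the genes higher in OX9, the 4 that followed ASR3 in size of difference all stood under 1 FPKM in each resting asr3-1 and WT library. AT2G01422, a noncoding RNA on chromosome 2, stood at 41.9 and 84.6 FPKM in OX9 against 0.694 and 0.725 FPKM in asr3-1, and was listed at 0 in both WT libraries. The difference was 5.15 ± 0.49 on the log2 scale and did not pass (limma, adjusted p = 0.082), though it did with quantile normalization and with the 6 libraries without flg22 alone. The flanking genes PIN4 and HB17 differed by -0.36 and 0.08 on the log2 scale.

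scpl33 (AT3G17180), a serine carboxypeptidase-like gene of chromosome 3, had 8.25 and 31.7 FPKM in OX9 and was listed at 0 in both asr3-1 libraries, with 0 and 0.0770 FPKM in WT. PAP22 (AT3G52820), a purple acid phosphatase, one of the enzymes that release phosphate from organic esters, had 15.7 and 24.2 FPKM in OX9 against 0.421 and 4.54 FPKM in asr3-1, and 0.678 and 4.47 FPKM in WT. In both genes every OX9 value lay above every mutant value, and the mutant stood close to WT. Both were named for large differences in each repeat, which makes such a lack of overlap likely, and its share over all genes was not counted. The difference was 2.87 on the log2 scale for PAP22, and neither gene passed (limma, adjusted p = 0.41 for scpl33 and 0.42 for PAP22).

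AT3G55290, annotated as an NAD(P)-binding Rossmann-fold protein, had 43.5 and 49.6 FPKM in OX9 against 13.0 and 7.47 FPKM in asr3-1, and 15.3 and 7.19 FPKM in WT. Its level is less certain, since 33.2% of the 50-base stretches of its transcript occur elsewhere in the genome, mainly in the neighbouring AT3G55310, which stood at 0.77 and 1.21 FPKM in OX9 and 0.67 and 0.64 FPKM in asr3-1. The pseudogene AT1G43590 had 22.5 and 52.7 FPKM in OX9 against 4.62 and 5.45 FPKM in asr3-1, and 11.6% of its stretches occur elsewhere. NUB (AT1G13400), a zinc finger gene of lateral organ growth, was lower in level but also apart, with 3.16 and 5.23 FPKM in OX9 against 0.622 and 1.15 FPKM in asr3-1.

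Other genes of high rank were not apart in WT or flg22 libraries. AT2G36040, a pseudogene with a transcript of 183 bases, had 9.46 and 16.2 FPKM in OX9 and was listed at 0 in both asr3-1 libraries, but flg22 libraries of asr3-1 held 19.8 and 0 FPKM. AT1G31900, a transcribed pseudogene, had 10.6 and 7.49 FPKM in OX9 against 1.95 and 2.3 FPKM in asr3-1, with 10.0 and 4.38 FPKM in WT. AT5G05300 had 4.29 and 2.03 FPKM in OX9, 0 in both asr3-1 libraries and 0 and 1.11 FPKM in WT, levels far below the 32.2 to 423 FPKM of the 6 libraries given flg22. It overlaps AT5G05290 on the opposite strand, and since the sources used here do not say whether reads kept their strand, reads of overlapping genes cannot be told apart.

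AT1G51920 is another gene of which flg22 libraries held more. Without flg22 it had 6.20 and 13.1 FPKM in OX9 and was listed at 0 in both asr3-1 and both WT libraries, and with flg22 it had 6.46 and 28.8 FPKM in OX9, 53.2 and 58.3 FPKM in asr3-1 and 17.9 and 45.0 FPKM in WT. OX9 was the only genotype with a value above 0 at rest. The danger peptide precursor gene PROPEP3, named here after its values were seen, also lay higher in resting OX9, at 13.3 and 3.0 FPKM against 3.28 and 0.859 FPKM in asr3-1, with overlap between the genotypes across repeats.

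Both groups held short genes. The 18 genes lower in OX9 had a median transcript length of 528 bases, against 871 bases for the 32 higher genes and 1684 bases for all genes kept, and 9 of the 18 lower and 6 of the 32 higher genes were under 500 bases against 2.38% of all genes kept. Of the 18, 8 were listed at 0 in both OX9 libraries, as 8 of the 32 higher genes were in both asr3-1 libraries. OX9 repeat 2 also had the smallest depth estimate of the 4 libraries, where 1 read on a transcript of 1 kb is worth about 0.16 FPKM, against 0.087 FPKM in repeat 2 of asr3-1. The part of length and depth in these differences was not tested.

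The largest of these differences was that of AT4G30097, a gene with a transcript of 144 bases, at 0 in both OX9 libraries against 25 and 188 FPKM in asr3-1, and at 0 in both WT libraries. With flg22 it had 11.5 and 697 FPKM in OX9 against 0 and 214 FPKM in asr3-1, the opposite direction, and it overlaps AT4G30100 on the opposite strand. AT5G64401 (162 bases) was listed at 0 in both OX9 libraries against 10.6 and 33.0 FPKM in asr3-1, but also at 0 in 1 of the 2 WT libraries. AT2G07705 was listed at 0 in OX9 against 6.05 and 8.36 FPKM in asr3-1, and all of its 50-base stretches occur elsewhere in the genome.

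AT4G00165 was lower in OX9 than in both other genotypes. This gene of the lipid-transfer and 2S albumin protein superfamily had 16.3 and 6.43 FPKM in OX9 against 50.5 and 41.2 FPKM in asr3-1, and 49.8 and 40.7 FPKM in WT. The OX9 libraries lay below all others and the mutant lay within 1 FPKM of WT in each repeat. The difference was -2.04 ± 0.41 on the log2 scale and did not pass (limma, adjusted p = 0.88). It overlaps AT4G00163 on the opposite strand.

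AT1G67105, a noncoding RNA, had 6.97 and 4.53 FPKM in OX9 against 18.24 and 14.1 FPKM in asr3-1, and 8.08 and 7.02 FPKM in WT. The mutant libraries stood above those of both other genotypes. The difference of -1.36 ± 0.18 did not pass (limma, adjusted p = 0.36).

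**Figure D2:**
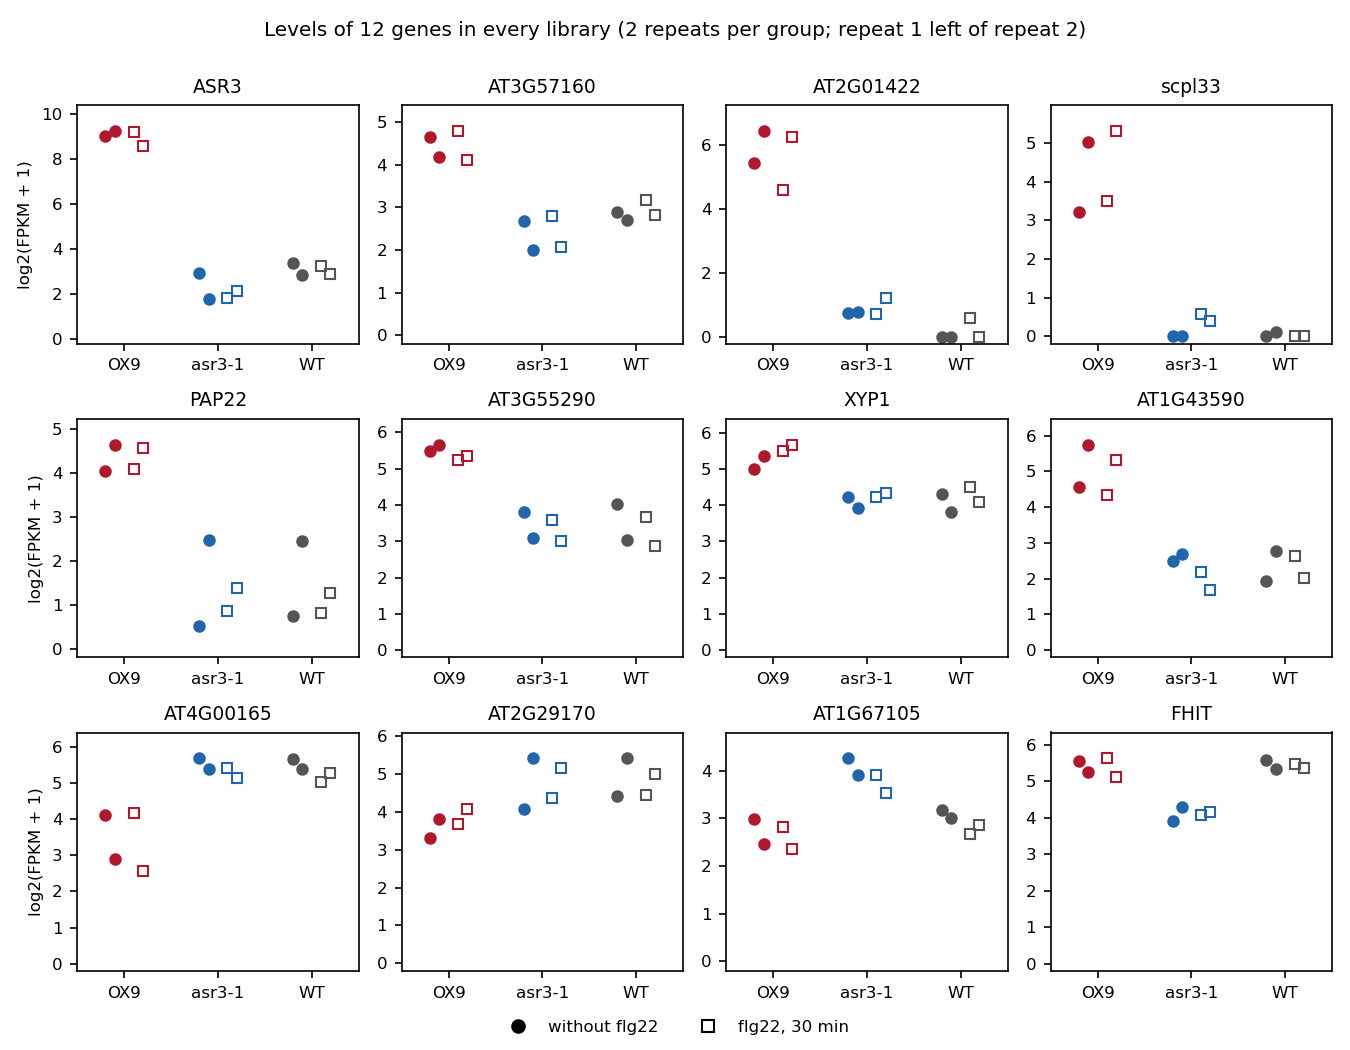
Levels of 12 genes as log2(FPKM + 1) in every library; columns are OX9, asr3-1 and WT, filled circles are libraries without flg22, open squares libraries with flg22, and repeat 1 is left of repeat 2. In the first 8 panels all 4 OX9 libraries lie above the 8 others, in AT4G00165 and AT2G29170 they lie below, and in AT1G67105 and FHIT the 4 asr3-1 libraries stand apart.

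The flg22 libraries of the same lines were read next. They were not used in the 2-fold choice of the 50 genes, but the filter at 1 FPKM counted all 12 libraries. Some of the 50, such as scpl33, AT4G11310 and AT1G30860, reached 1 FPKM in OX9 libraries alone. The shares of all genes are therefore given as a description and not as an independent check. Of the 32 genes higher in resting OX9, 16 were higher in OX9 in both flg22 repeats as well, against 23.8% of all genes kept, and 11 were at least 2-fold higher in both, against 0.14%. ASR3, which the transgene of OX9 carries, is counted in the 32, the 16 and the 11. Of the 18 lower genes 9 were lower in both flg22 repeats, against 32.4% of all genes, and 3 were at least 2-fold lower in both, against 0.448%. In the opposite direction in both flg22 repeats lay 7 of the 50, 5 of them from the higher group.

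AT3G57160 passed the test in the flg22 libraries too, with 26.5 and 16.3 FPKM in OX9 against 5.94 and 3.21 FPKM in asr3-1 (a difference of 2.02, limma, adjusted p = 0.023). Both tests of this gene come from the same fit and share its estimate of the spread, so they are not independent. AT2G01422 had 23.2 and 75.0 FPKM in flg22-treated OX9 against 0.665 and 1.36 FPKM in asr3-1, and scpl33 had 10.2 and 38.6 FPKM against 0.483 and 0.313 FPKM. In these 3 genes the OX9 libraries lay above the mutant ones in both conditions. The order was the other way round after flg22 in 3 genes that flg22 libraries held at higher levels. AT5G05300 had 32.2 and 168 FPKM in flg22-treated OX9 against 87.1 and 423 FPKM in asr3-1, PROPEP3 had 47.6 and 159 FPKM against 135 and 511 FPKM, and AT1G51920 had the values given above. None of the 3 passed in the flg22 libraries (limma, adjusted p = 0.99, 0.99 and 0.74). The test of the difference between the 2 conditions called 0 genes (limma, with 611 genes, 2.94%, at unadjusted p under 0.05), so none of these is shown to be particular to resting seedlings.

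**Figure D3:**
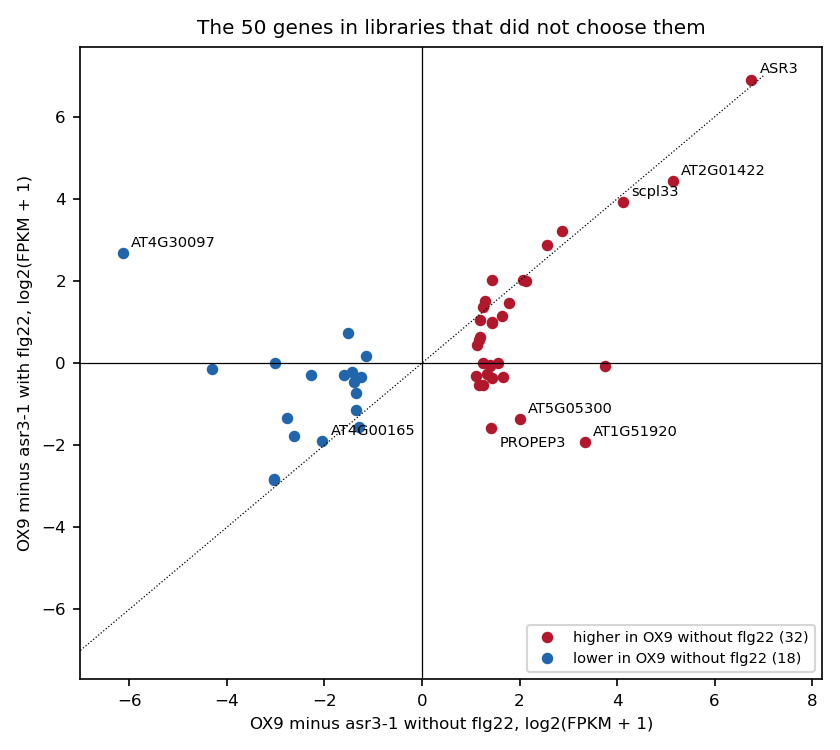
OX9 minus asr3-1 differences of log2(FPKM + 1) for the 50 genes, fitted without flg22 on the x axis and with flg22 on the y axis; red genes were higher and blue genes lower in resting OX9, and the dotted line marks equal differences. ASR3, AT2G01422 and scpl33 lie near the line, AT1G51920, AT5G05300 and PROPEP3 lie below 0 on the y axis.

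Whether a difference between OX9 and asr3-1 comes from the one line or the other was described with the WT libraries, by a count made after the values were seen: genes for which the 4 libraries of a genotype, with and without flg22, all lay on 1 side of the 8 others with means at least 1 apart on the log2 scale. OX9 stood apart in 14 genes that were higher (0.0675%) and 3 that were lower (0.0145%), asr3-1 in 3 higher (0.0145%) and 4 lower (0.0193%), and WT in 0 higher and 1 lower (0.00482%). Because the count uses the libraries compared, it is a description and no test.

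The 14 genes high in OX9 are ASR3, AT3G57160, AT2G01422, scpl33, PAP22, AT1G43590, AT3G55290, NUB and 6 more. XYP1 (AT5G64080), a xylogen-type protein of the lipid-transfer superfamily, had 30.6 and 40.1 FPKM in OX9 against 17.7 and 14.2 FPKM in asr3-1. CYP702A5, a cytochrome P450, had 8.74 and 9.15 FPKM in OX9 against 5.26 and 2.90 FPKM in asr3-1. The remaining 4, at 0.933 to 4.75 FPKM in resting OX9 and 0.133 to 0.849 FPKM in resting asr3-1, were AT1G30860 (a RING/U-box protein), AT3G05155 (a major facilitator transporter), AT4G11310 (a papain family cysteine protease) and AT5G62240 (annotated as a microtubule-associated protein). The 3 genes low in OX9 were AT4G00165, the pseudogene AT1G20390 and AT2G29170, a Rossmann-fold gene with 8.98 and 13.1 FPKM in OX9 against 15.9 and 41.8 FPKM in asr3-1, 19% of whose 50-base stretches occur elsewhere.

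The genes low in asr3-1 had close levels in OX9 and WT. FHIT (AT5G58240), which encodes the fragile histidine triad hydrolase, had 46.6 and 37.6 FPKM in OX9 against 14.2 and 18.7 FPKM in asr3-1, and 47.5 and 39.3 FPKM in WT. AT5G11330, an FAD/NAD(P)-binding oxidoreductase, had 34.8 and 45.4 FPKM in OX9 against 19.0 and 20.5 FPKM in asr3-1, and 34.7 and 40.9 FPKM in WT. In both the mutant libraries lay below all OX9 and WT libraries.

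AT3G50845 (a MIP18 family protein) had 11.6 and 8.05 FPKM in OX9 against 3.40 and 4.12 FPKM in asr3-1, and AT3G59320 (a solute carrier family 35 protein) had 11.6 and 18.9 FPKM in OX9 against 5.71 and 7.91 FPKM in asr3-1. The genes high in asr3-1 were AT1G67105, UBP20 (AT4G17895), a ubiquitin-specific protease, with 5.79 and 6.15 FPKM in OX9 against 11.8 and 12.6 FPKM in asr3-1, and the pseudogene AT5G35935, with 1.03 and 1.37 FPKM in OX9 against 3.1 and 6.07 FPKM in asr3-1. OX9 minus asr3-1 differences ran from 0.97 to 1.31 in the 4 genes low in the mutant and from -1.36 to -0.92 in the 3 high in it, and none passed the test.

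No other gene of the trihelix family passed the test. Of 25 family members kept, ASR3 apart, 24 ran from -0.25 (AT1G21200) to 0.27 (GT2) on the log2 scale. GT-1, known from light-responsive promoters, had 27.4 and 25.1 FPKM in OX9 against 22.1 and 24.0 FPKM in asr3-1. The genes beside ASR3 on chromosome 2, CPL3 and BUBR1, differed by 0.07 and 0.08 on the log2 scale.

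Immune gene lists held no other gene past the test. Over 22 lists with 531 distinct genes kept, ASR3 alone passed, and 20 genes (3.77%) had an unadjusted p under 0.05, against 4.22% of all genes. The spread in this fit includes that between flg22 libraries, which limits what can be called among genes that respond to flg22. Of all genes, 875 had such a p here. There were 1383 with the repeat block within each treatment and 1419 with the 6 libraries without flg22 alone. Counts of list genes under these settings are not given here. The list medians ran from -0.31 to 0.19, where the median of all genes was -0.016 and 45.9% of all genes were above 0.

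Of 31 early flg22 markers kept, 22 lay above 0 and 9 below, with a median of 0.08. The repeats did not agree, with medians of 0.33 in repeat 1 and -0.10 in repeat 2. Of the 31, 10 were higher and 6 lower in both repeats. Among all 20753 genes kept, 4786 were higher and 6155 lower in both. The peroxidase gene PER4 had 16.1 and 5.49 FPKM in OX9 against 2.82 and 5.08 FPKM in asr3-1, so its difference came from repeat 1. WRKY29, a WRKY factor induced in flagellin signalling, had 25.1 and 24.4 FPKM in OX9 against 17.1 and 17.2 FPKM in asr3-1 (limma, adjusted p = 1). The 33 immune receptor and receptor-proximal genes kept stayed between -0.23 and 0.22, with 14 above 0, and the 20 MAP kinase cascade genes between -0.43 and 0.16, with 6 above 0.

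Jasmonate genes were the list with the largest share below 0 of the 22: 24 of 31 lay below 0 and 6 above, with a median of -0.19 (-0.22 in repeat 1 and -0.09 in repeat 2), and 18 were lower in both repeats. JAZ7, which encodes a repressor of jasmonate signalling, had 2.1 and 0.428 FPKM in OX9 against 5.97 and 2.17 FPKM in asr3-1, and WT stood at 0.705 and 1.1 FPKM, nearer to OX9. AOS, the enzyme that makes the allene oxide precursor of jasmonate, had 80.3 and 75.7 FPKM in OX9 against 101.7 and 108 FPKM in asr3-1, and 87.2 and 79.4 FPKM in WT. TIFY10B (also JAZ2) had 24.5 and 25.9 FPKM in OX9 against 36.3 and 31.0 FPKM in asr3-1. None of the 3 passed (limma, adjusted p = 1). Their OX9 and asr3-1 values did not overlap, though in JAZ7 only narrowly (2.1 in OX9 repeat 1 against 2.17 in asr3-1 repeat 2). The 3 were named for their small unadjusted p, and the share of all genes without such overlap was not counted. The lack of overlap is therefore no evidence of a jasmonate difference.

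Among the salicylic acid genes PR1, the classic marker of that pathway, had 19.2 and 0 FPKM in OX9 against 1.05 and 0 FPKM in asr3-1, a difference of repeat 1 alone, and 11 of 24 genes of the list lay above 0. In the indole glucosinolate and camalexin list 15 of 24 lay above 0. MYB122, a regulator of indole glucosinolate synthesis, had 0.664 and 0.286 FPKM in OX9 against 1.57 and 1.96 FPKM in asr3-1. IGMT1, a methyltransferase that modifies these compounds, had 72.1 and 72.1 FPKM in OX9 against 35.4 and 51.1 FPKM in asr3-1. The 22 aliphatic glucosinolate genes had a median of -0.15, with 6 above 0.

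The heat shock, low-oxygen and nutrient lists had small medians with the same sign in both repeats. With flg22 their medians were -0.04, -0.13 and -0.06, where the median of all genes was -0.02. Of 17 heat shock genes kept 11 lay above 0, with a median of 0.19 (0.26 in repeat 1 and 0.14 in repeat 2). The small heat shock protein gene HSP18.2 had 5.62 and 4.03 FPKM in OX9 against 2.53 and 2.29 FPKM in asr3-1, and 4.99 and 2.39 FPKM in WT. Of 15 low-oxygen genes 10 lay above 0, with a median of 0.15. Of 32 iron, phosphate and nitrate genes 20 lay below 0, with a median of -0.19. It was -0.20 in repeat 1 and -0.04 in repeat 2, where the median of all genes was -0.03. HRS1, a transcription factor of phosphate and nitrate signalling, had 5.48 and 5.49 FPKM in OX9 against 9.50 and 8.42 FPKM in asr3-1.

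Of 34 auxin response genes 23 lay below 0, but the medians of the repeats were 0.06 and -0.18. IAA29, an auxin response repressor, had 2.73 and 3.98 FPKM in OX9 against 4.65 and 7.96 FPKM in asr3-1. Among the abscisic acid and cold genes 17 of 25 lay below 0, but the medians were 0.02 in repeat 1 and -0.37 in repeat 2. The phosphatase gene ABI2 had 3.15 and 2.89 FPKM in OX9 against 4.29 and 4.82 FPKM in asr3-1. TT5, which encodes chalcone isomerase of the flavonoid pathway, had 25.6 and 11.1 FPKM in OX9 against 49.4 and 17.2 FPKM in asr3-1. In the flavonoid list 12 of 17 genes lay below 0, with medians of -0.21 in repeat 1 and -0.006 in repeat 2. None of these genes passed the test. The clock, ethylene, cell wall and gene silencing lists had medians between -0.03 and 0.02.

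**Figure D4:**
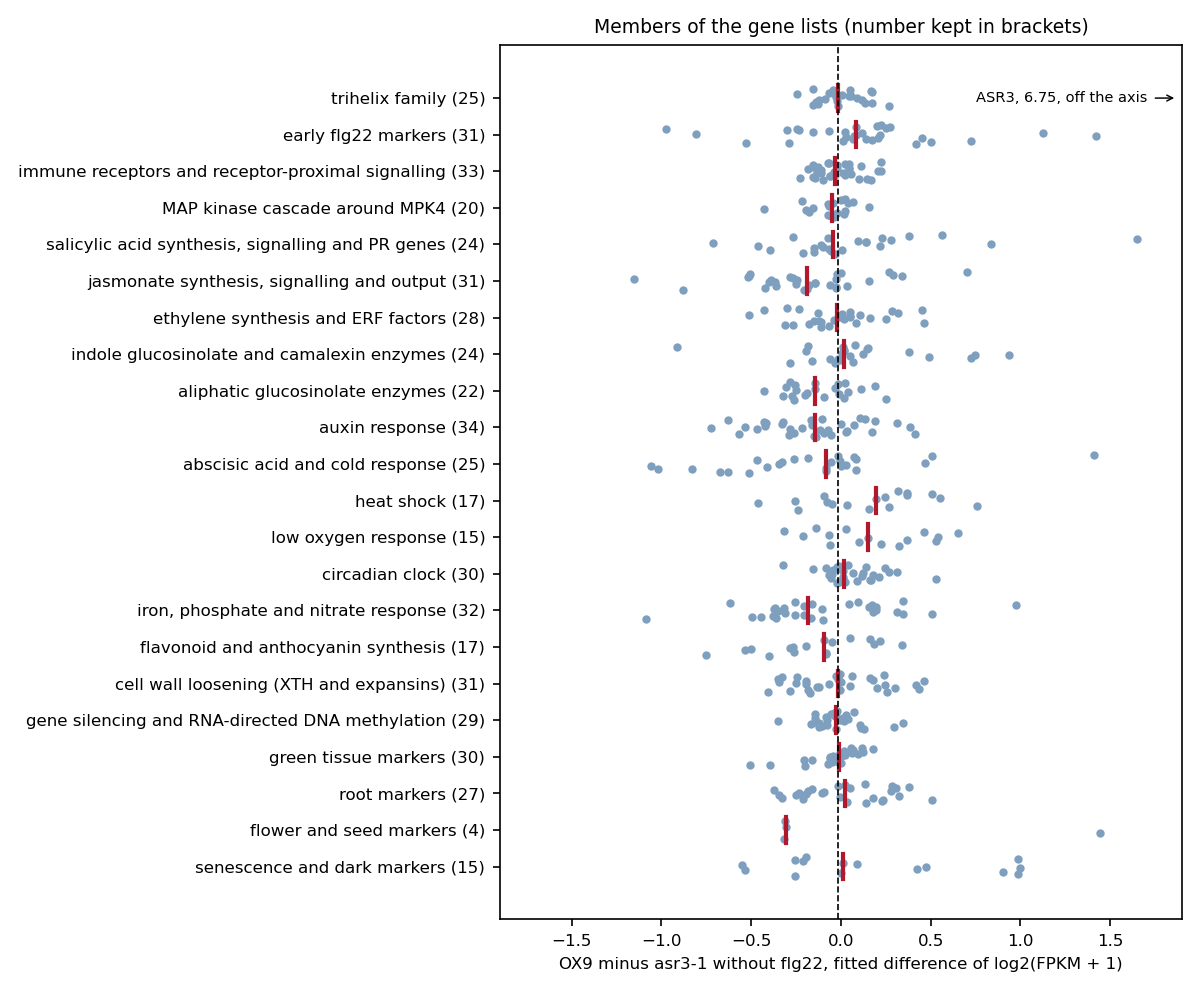
Each point is a gene of 1 of the 22 lists, at its fitted OX9 minus asr3-1 difference of log2(FPKM + 1) without flg22; red bars are list medians and the dashed line is the median of all genes kept (-0.016). ASR3 is off the axis at 6.75, and list medians lie between -0.31 and 0.19.

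Tissue markers bear on whether the seedlings were alike in make-up. The 30 green tissue genes had a median of -0.01, with 13 above 0, and summed to 139200 and 114800 FPKM in OX9 against 146600 and 117900 FPKM in asr3-1. The 27 root genes kept had a median of 0.02, with 14 above 0, and summed to 2440 and 1854 FPKM in OX9 against 2540 and 1328 FPKM in asr3-1. Green tissue and root markers were both present in all 4 libraries. Only 4 of the flower and seed markers were kept, with 1 above 0, 3 below and a median of -0.31. The marker above 0 was SEP3, a MADS-box factor of floral organ identity. SEP3 had 6.04 and 22.2 FPKM in OX9 against 2.08 and 6.17 FPKM in asr3-1, and 4.79 and 5.89 FPKM in WT. Its difference of 1.44 did not pass (limma, adjusted p = 1). The senescence and dark markers summed to 2288 and 2120 FPKM in OX9 against 1631 and 1440 FPKM in asr3-1, with a median of 0.01 and 9 of 15 above 0. Most of the gap between these sums lay in SEN1, a dark-induced gene, with 1201 and 1042 FPKM in OX9 against 724 and 493 FPKM in asr3-1, while NAC6, a senescence regulator, had 11.3 and 2.69 FPKM in OX9 against 15.5 and 4.88 FPKM in asr3-1. The part of these sums in the differences above was not tested.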

How the data were processed

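RNA of whole seedlings was sequenced as single 100-nt reads per the design text. The deposited values are FPKM per gene, per the file headers; the sources used here do not say how the authors set library size. Per the submitters' processing notes, Cuffdiff 2.2.1, TopHat2 2.0.12, cutadapt 1.0, bcl2fastq 1.8.4 and TAIR10 were used, with no roles named. Read counts were not used here, so depth was estimated from the lowest nonzero FPKM of transcripts of 2.5 to 8 kb, it entered no test, and no counting interval is given.

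From the 33373 lines with an identifier, 176 lines of 88 repeated identifiers were left out. Of 33197 identifiers, 32722 matched a locus tag of the RefSeq annotation of TAIR10.1, the source of names, positions and lengths. The 20753 genes that reached 1 FPKM in 2 or more libraries were fitted in R 4.3.3 with limma 3.58.1 (trend and robust options) on log2(FPKM + 1), with a mean for each of 6 groups and the repeat as a block, 5 residual degrees of freedom, 2-sided tests and Benjamini-Hochberg adjustment over all genes at 0.05. The fit was tested on simulated data. Repeat numbers pair the libraries: per the design text they mark independent repeats of the experiment, and deviations from group means correlated at 0.57 to 0.81 in all 15 pairs of groups (0.70 for OX9 and asr3-1 without flg22).

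Named genes are ASR3; genes past the test; the 12 highest and 12 lowest among genes 2-fold apart in both repeats with 1 FPKM in both libraries of the higher group, ranked by the smaller within-repeat difference; up to 4 per list by unadjusted p; and genes chosen after their values were seen, as stated. The comparison, the 22 gene lists and the rules were chosen with earlier results of these data known. List counts and medians are descriptions. Alternatives covered the block, the libraries fitted, pseudocounts, filters, scaling, moderation and single libraries. Figures were drawn with matplotlib 3.10.9.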

Additional observations from a re-analysis of the deposited data

How the results depend on the processing

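ASR3 kept its direction under every alternative run. It was not past the test with the 4 compared libraries alone (6.75 on the log2 scale, limma, adjusted p = 0.488) or with the 6 libraries without flg22 alone (6.75, adjusted p = 0.0675), and leaving out 1 library gave 6.30 to 7.21. The 2 genes past the test became 1 with no replicate block (ASR3), 0 with the 4 libraries alone (1353 genes at unadjusted p under 0.05), 1 with the 6 libraries (AT2G01422), 4 with a pseudocount of 0.1 (also scpl33 and AT1G51920), and 1 to 14 when 1 library was left out. The gene of the lists past the test, ASR3, gave a count of 0 with the 4 and with the 6 libraries. Genes at least 2-fold apart in the same direction in both repeats numbered 88 and 189 with pseudocounts of 0.5 and 0.1. Those of them in the same direction in both flg22 repeats numbered 39 and 81, against 25 with a pseudocount of 1. The difference between conditions gave 0 genes in all alternatives run. Of 554 other values of named genes under alternatives, 543 kept their side of the threshold, 7 (all of AT3G57160) lost it and 4 gained it, with 0 reversed; of 330 list medians 262 moved by less than the spread between repeats. Counts over both repeats could not be computed without 1 library, since they need both. Each group held 2 pools and depth was known only as an estimate, and no limit of detection was computed. The causes of these changes were not tested.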
